A study of Homo sapiens with 6 samples.

Results

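The IFIT family (interferon-induced proteins with tetratricopeptide repeats) was followed in DU145 cells treated with taraxasterol (TAX), a triterpenoid of dandelion and related plants. IFIT1, IFIT2, IFIT3 and IFIT5, the 4 members, were found by their gene symbols among the 23062 identifiers of the deposited tables. The family was chosen by its values in the comparison of TAX with control cells, so its levels and differences in that comparison are given as a description, without a p-value. After TAX treatment IFIT1, IFIT2 and IFIT3 were 36.6% to 46.1% lower by mean level than in control cells, with no overlap between the libraries of the groups. In 3.34% of all tested genes all TAX libraries likewise lay below all control libraries. IFIT5 was 5.73% lower, and its libraries overlapped. In RNA of a whole culture, fewer cells that express a gene and less RNA of it per cell cannot be told apart.

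DU145 is an epithelial, androgen-independent line of human prostate cancer, established from a metastasis in the brain. RNA came from 3 libraries of control cells, kept in medium for 48 h, and 3 libraries of cells that received 56 µM TAX for 48 h, all of the same line and labelled WT. TAX was dissolved in DMSO, and the DMSO content of the control medium is not stated, so the solvent and TAX cannot be told apart. No interferon was added to either group as far as the labels and methods say, and nothing states that the libraries came from separate cultures, so p-values measure only the spread between these 6 samples.

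The values are taken as FPKM (fragments per unit of transcript length and of sequencing depth), a level corrected for transcript length and library depth. They summed to between 322483 and 363724 per library, and between 12204 and 12383 genes per library reached 1 FPKM. Of the epithelial markers, KRT8 ranged from 125.8 to 173.3 FPKM and EPCAM from 55.0 to 66.2 FPKM, while KRT5 was listed at 0 in each library. Of 8 leukocyte markers 7 lay below 1 FPKM in all 6 libraries, PTPRC, the pan-leukocyte marker, at 0 or 0.00692 FPKM. The summed level of the leukocyte list was 20.5 to 27.0 FPKM in control cells and 32.9 to 34.1 FPKM after TAX treatment, nearly all of it CD68, a lysosomal protein. For the fibroblast and endothelial list, 6 of 7 genes lay below 1 FPKM in all 6 libraries and the sums were at most 2.101 FPKM in control cells and 1.503 FPKM in TAX cells, mostly COL1A1. The part of these marker differences in the results was not tested.

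IFIT proteins are built almost wholly of tetratricopeptide repeats, helical units that together form a groove for RNA or for partner proteins. IFIT1 binds RNA whose cap lacks the methyl group of the first nucleotide's ribose and blocks its translation, IFIT5 binds RNA with a triphosphate at the 5′ end, and IFIT2 and IFIT3 join IFIT1 in complexes, in which IFIT3 stabilises IFIT1. The genes are classic targets of interferon: the receptors activate the kinases JAK1 and TYK2, these phosphorylate STAT factors, and STAT2 enters with IRF9 into the factor ISGF3, which binds the interferon-stimulated response element of a promoter. IRF3 and IRF1 can bind the same element without interferon.

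The core of that element is shown first, because IFIT1, IFIT3 and IFIT5 have it in common and the choice of members did not use it. The letters GAAANNGAAA (on the other strand TTTCNNTTTC) were searched on both strands in the RefSeq promoter windows of GRCh38.p14, which run from 250 bases before to 50 bases after each start site. Windows were found for IFIT1, IFIT3 (with 2 start sites) and IFIT5, and the promoter of IFIT2 was not analysed here. Each stretch lies on chromosome 10, is printed on the + strand, on which these genes are transcribed, and has the matches in capitals.
IFIT1 (chr10:89392487-89392534): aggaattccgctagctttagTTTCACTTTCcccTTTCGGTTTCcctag
IFIT3, first start site (chr10:89327821-89327889): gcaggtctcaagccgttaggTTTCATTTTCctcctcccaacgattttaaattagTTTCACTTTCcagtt
IFIT3, second start site (chr10:89332415-89332492): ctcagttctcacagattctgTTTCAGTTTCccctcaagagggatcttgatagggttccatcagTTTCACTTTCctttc
IFIT5 (chr10:89414503-89414563): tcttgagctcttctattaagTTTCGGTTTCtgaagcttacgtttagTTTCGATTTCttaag

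Every match in these windows read TTTC on the + strand. With the start site at position 0, the 2 matches of IFIT1 ran from -116 to -107 and from -103 to -94, close to each other. In IFIT3 they began at -156 and -122 from the first start site and at -94 and -51 from the second. IFIT5 had 3 matches, which began at -45, -19 and -4. The last of them runs across the start site and is not printed. The window of IFIT1B, the paralog between IFIT3 and IFIT1, had 0 matches. Of all 35116 promoter windows 3.57% held at least 1 match and 0.26% held at least 2. A match is a description of the letters, not a binding site or a cause of a level.

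The members lie in a row on the + strand of chromosome 10, within 137.3 kb. In GENCODE 29 (GRCh38) IFIT2 spans chr10:89283694-89309276, IFIT3 chr10:89327894-89340971, IFIT1 chr10:89392546-89406486 and IFIT5 chr10:89414586-89421001. Their coding sequences have 1434 bases in IFIT1, 1449 in IFIT2, 1470 in IFIT3 and 1446 in IFIT5. Among aligned bases IFIT2 and IFIT3 were the closest pair with 72.7% identity, and IFIT2 and IFIT5 the most distant with 61.3%. Despite the kinship, no stretch of 50 bases was shared between the transcripts of the 4 members, and 38 such stretches of IFIT1 also occurred in IFIT1B. Counting transcripts of all other genes too, 1.02% of the 50-base stretches of IFIT1, 2.48% of IFIT3, 7.50% of IFIT2 and 0.0% of IFIT5 were not unique. The body of LIPA, on the opposite strand, spans IFIT2, IFIT3, IFIT1B and IFIT1, and its exons overlap those of IFIT2 over 65 bases. The transcript AL353751.1 overlaps exons of IFIT2 over 356 bases. Whether the library kit kept the strand is not stated, so reads of these stretches cannot be assigned with certainty.

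IFIT3 had the highest level of the family. Control replicates 1 to 3 measured 27.7, 24.4 and 24.3 FPKM, while TAX replicates 1 to 3 measured 15.8, 16.4 and 16.2 FPKM. All TAX libraries lay below all control libraries, and they lay close together, with an SD of 0.324 FPKM against 1.94 FPKM in control cells. The mean went from 25.5 to 16.2 FPKM (n = 3 each), 36.6% lower. On the log2(FPKM + 1) scale, which understates the change of low genes, the difference was -0.62 (SE 0.081, 95% interval -0.80 to -0.44).

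IFIT2, known to promote apoptosis when it is expressed without its partners, had the largest difference of the family on this scale. Control libraries measured 17.0, 18.4 and 16.5 FPKM, and TAX libraries 9.97, 8.75 and 9.24 FPKM, in replicate order. Again the groups did not overlap, and the lowest control library was above the highest TAX library by more than the range of either group. The means were 17.3 ± 0.964 and 9.32 ± 0.613 FPKM (SD, n = 3), 46.1% lower after TAX treatment, and the log2 difference was -0.83 (SE 0.082, 95% interval -1.01 to -0.64).

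IFIT1, the cap sensor, measured 11.8, 12.4 and 11.0 FPKM without TAX, against 6.60, 7.23 and 5.93 FPKM with it. The groups did not overlap, and replicate 2 was the highest and replicate 3 the lowest in both. The means were 11.7 ± 0.662 and 6.59 ± 0.651 FPKM (SD, n = 3), 43.7% lower after TAX treatment, with a log2 difference of -0.75 (SE 0.089, 95% interval -0.94 to -0.55).

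IFIT5, the sensor of triphosphate ends, was the lowest member. Without TAX it measured 3.36, 3.32 and 3.28 FPKM, against 2.85, 3.39 and 3.15 FPKM with TAX. TAX replicate 2 was above each control library and the other TAX libraries were below them, so the groups overlapped. The means were 3.32 ± 0.0357 and 3.13 ± 0.268 FPKM (SD, n = 3). The log2 difference was -0.07 (SE 0.081, 95% interval -0.25 to 0.11). IFIT1B was listed at 0 in 5 libraries and at 0.0106 FPKM in control replicate 3, so it was not tested.

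**Figure D1:**
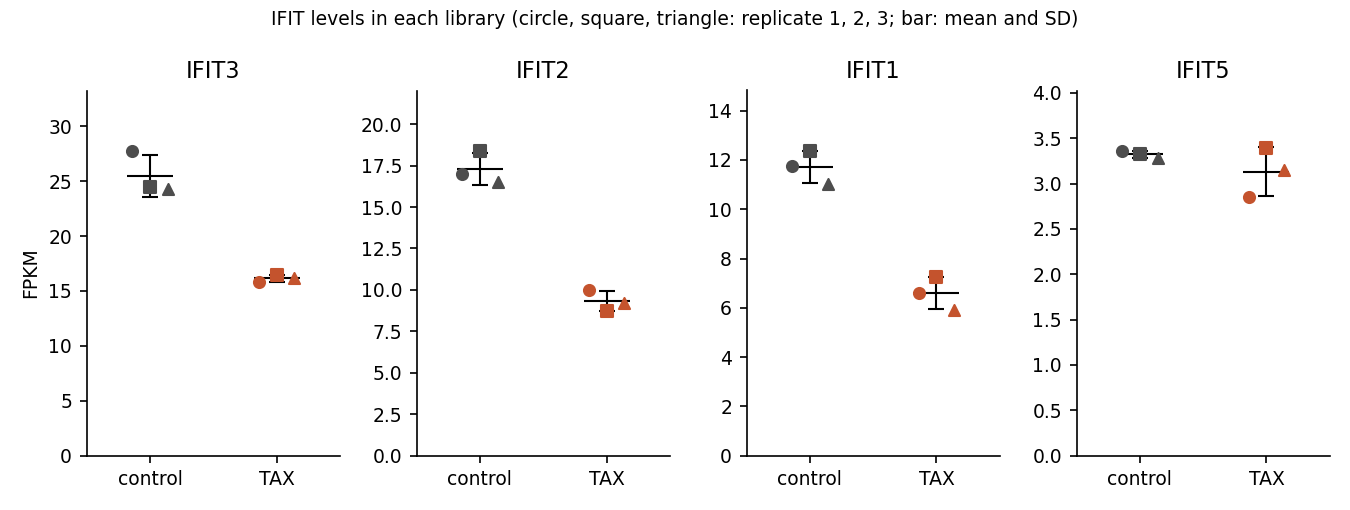
FPKM of IFIT3, IFIT2, IFIT1 and IFIT5 in each library, with 1 panel per gene, a vertical axis from 0 that differs between panels, circles, squares and triangles for replicates 1, 2 and 3, and bars for mean and SD (n = 3 per group). The 3 TAX libraries of IFIT3, IFIT2 and IFIT1 lie below the 3 control libraries, and those of IFIT5 lie on both sides of them.

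In the plot of levels by library the spread within a group was small against the differences of IFIT1, IFIT2 and IFIT3, but not of IFIT5. The members were selected on this contrast, so this is a description. The coefficient of variation was 5.6% to 7.6% in control cells for IFIT1, IFIT2 and IFIT3 and 2.0% to 9.9% after TAX treatment. For IFIT5 it was 1.1% in control cells and 8.6% after TAX treatment.

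Across all genes, 12359 passed the filter of at least 1 FPKM in at least 3 libraries, all 4 members among them, and were fitted with limma. After Benjamini-Hochberg adjustment (adjusted p under 0.05), 20 genes were lower after TAX treatment, which is 0.162% of the genes tested, and 39 were higher. Of the 4 members 3 were among the lower genes, at places 7 (IFIT2), 8 (IFIT1) and 11 (IFIT3) by size of the log2 difference. In 413 genes (3.34%) all TAX libraries lay below all control libraries, as in 3 of the 4 members. Because the members were selected on this contrast, nothing is read from these counts. The median log2 difference of all tested genes was 0.05, and 30.9% of the genes lay below 0. This median depended on scaling and on single libraries. It was 0.006 without control replicate 3, the library with the lowest sum, and 0.078 without control replicate 1 or 2. Quantile normalization and centring on the library median bring it near 0 by design (0.004 and -0.003). At an unadjusted p under 0.05 (limma), 1253 genes (10.1%) differed, 2.41% of all tested genes being lower and 7.73% higher. With quantile normalization, the split of 20 lower and 39 higher genes became 48 lower and 47 higher, and with each library centred on its median it became 50 lower and 46 higher. Without the filter on low values 20280 genes were tested, 0 of the 4 members and 1 gene in all were lower at an adjusted p under 0.05, and 1854 genes had an unadjusted p under 0.05 (limma).

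The order of the levels was IFIT3, IFIT2, IFIT1 and IFIT5 in each of the 6 libraries. In both groups the libraries of neighbours in this order did not overlap, so each member differed from the next beyond the spread of the libraries. The control mean of IFIT3 was higher than that of 78.7% of the tested genes, that of IFIT2 higher than 68.4%, that of IFIT1 higher than 56.5% and that of IFIT5 higher than 21.4%.

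The summed level of the 4 members was 59.8, 58.5 and 55.1 FPKM without TAX, against 35.2, 35.8 and 34.5 FPKM with it. The sum was thus lower in each TAX library than in each control library. The share of IFIT5 in the sum was 5.75% ± 0.186 in control cells and 8.90% ± 0.708 after TAX treatment (SD, n = 3), and the groups did not overlap. The share depends on the other members, which were selected on this contrast, so it is a description. IFIT3 made up 44.1% and 45.9% of the sum, IFIT2 29.9% and 26.5%, and IFIT1 20.3% and 18.7%.

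A ratio of 2 members within a library does not depend on how that library was scaled. The log2 ratio of IFIT1 over IFIT5 was 1.81, 1.89 and 1.75 without TAX, against 1.21, 1.09 and 0.91 with it. That of IFIT2 over IFIT5 was 2.34, 2.47 and 2.33 against 1.80, 1.37 and 1.55, and that of IFIT3 over IFIT5 was 3.05, 2.88 and 2.89 against 2.47, 2.28 and 2.36. In all 3 ratios the TAX libraries lay below the control libraries. IFIT5 is the divisor of all 3, and the members were selected on this contrast. The separation thus follows largely from the choice, and nothing is read from it. The mean differences of these log2 ratios were -0.74, -0.80 and -0.57. The ratios among IFIT1, IFIT2 and IFIT3 overlapped between the groups. The mean of IFIT1 over IFIT2 was -0.56 in control cells and -0.50 after TAX treatment, that of IFIT1 over IFIT3 -1.12 and -1.30, and that of IFIT2 over IFIT3 -0.56 and -0.80.

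**Figure D2:**
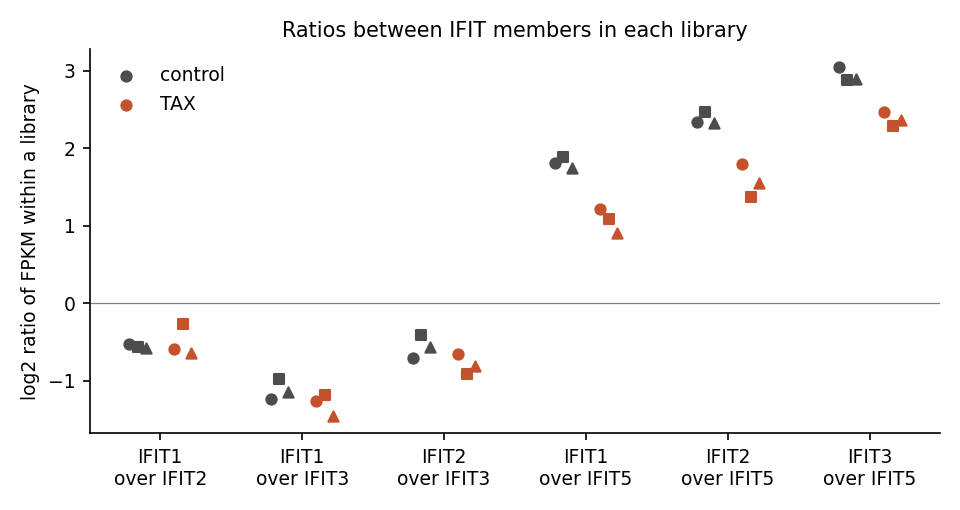
The log2 ratio of the FPKM of 2 members within a library, for each of the 6 pairs of members, with control libraries in grey and TAX libraries in orange and with circles, squares and triangles for replicates 1, 2 and 3. The TAX points lie below all control points in the 3 ratios over IFIT5, while in the other ratios the ranges of the groups overlap. This is a description of members selected on this contrast.

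The pathway upstream of the members was then described in the order ligand, receptor, kinase and factor. In the plot of within-library ratios IFIT5 lies apart from the other members, as a description of members selected on this contrast. The question here was whether genes of the chain differed between the groups. Of 21 interferon ligands, the secreted signals, none passed the filter, 20 lay below 1 FPKM in all 6 libraries and 10 were listed at 0 in all of them. IFNE, an interferon of epithelia, was the highest with 1.06, 0.999 and 0.807 FPKM without TAX, against 0.790, 0.822 and 0.756 FPKM with it. The groups overlapped. IFNA1 averaged 0.176 FPKM in control cells and 0.183 FPKM after TAX treatment. Depth is unknown, so a level near 0 does not show that a ligand was absent.

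All 9 receptor and kinase genes were tested, against a background of 0.477% of genes called in either direction. None had an adjusted p under 0.05 (limma, lowest adjusted p 0.606), 0 had an unadjusted p under 0.05, and in 0 of them did the groups separate. The log2 differences had a median of 0.00 and ran from -0.17 (IL10RB, the second chain of the interferon lambda receptor) to 0.11 (IFNGR2, of the interferon gamma receptor). IFNAR1, a chain of the type I receptor, differed by 0.01 (SE 0.080) and IFNAR2, the other chain, by -0.01 (SE 0.098). The differences were -0.04 for IFNLR1, -0.05 for IFNGR1, 0.00 for JAK1, 0.00 for JAK2 and 0.03 for TYK2, on the log2(FPKM + 1) scale. IFNAR2 averaged 31.3 FPKM in control cells and 31.2 FPKM after TAX treatment, and JAK1 27.2 and 27.1 FPKM.

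The 10 STAT and IRF factors gave a like picture. None had an adjusted p under 0.05 (limma, lowest adjusted p 0.544), 0 had an unadjusted p under 0.05, and the median log2 difference was 0.01. STAT2, the partner of IRF9, averaged 14.2 ± 1.55 and 13.0 ± 0.153 FPKM (SD, n = 3), a log2 difference of -0.12 (SE 0.090).

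IRF9, the DNA-binding part of ISGF3, had the largest value above 0 in this list, 0.25 (SE 0.129). It measured 1.03, 0.976 and 0.700 FPKM without TAX, against 1.65, 0.858 and 1.30 FPKM with it, and the groups overlapped. IRF7, which amplifies interferon production, had the lowest value, -0.23 (SE 0.154). IRF1 differed by 0.03, IRF2, a repressor of the element, by -0.02, IRF3, the factor of RNA and DNA sensing, by 0.04, and STAT3 by 0.02. IRF5 differed by 0.03. These are transcript levels, and phosphorylation of STAT2 or IRF3 was not measured here.

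**Figure D3:**
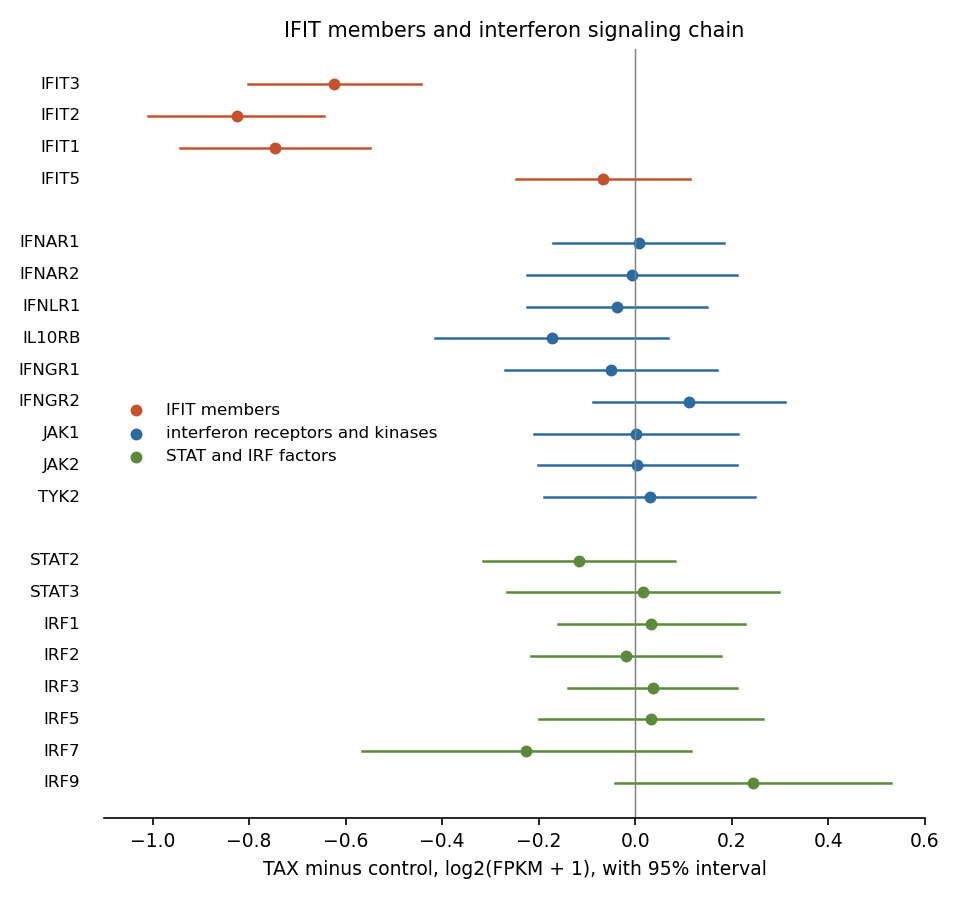
Difference of TAX minus control on the log2(FPKM + 1) scale with its 95% interval (limma) for the 4 IFIT members, the 9 receptor and kinase genes and 8 of the 10 STAT and IRF factors. The intervals of IFIT3, IFIT2 and IFIT1 lie below -0.40 and that of IFIT5 spans 0, as a description of members selected on this contrast. Those of the genes of the chain drawn here hold 0.

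Of the genes that sense viral RNA or DNA, 11 were tested and 0 had an adjusted p under 0.05 (limma). At an unadjusted p under 0.05, DHX58 was lower, with a log2 difference of -0.25 (SE 0.098), and TRIM25 was higher, with 0.27 (SE 0.123), against 10.1% of all tested genes in either direction. DHX58 encodes the RNA helicase LGP2 and TRIM25 a ubiquitin ligase that activates RIG-I. The median of the list was -0.02. ADAR, which edits double-stranded RNA, was the highest of the list with 86.8 FPKM in control cells and 88.3 FPKM after TAX treatment, followed by TRIM25, TBK1, the kinase of IRF3, and STING1, the adaptor of DNA sensing. TBK1 averaged 28.3 and 31.6 FPKM and STING1 13.9 and 15.1 FPKM.

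Other interferon-stimulated genes were described next. Their list was chosen with earlier results of these data known, so its counts are a description. Of 48 listed genes 34 were tested and 12 lay below 1 FPKM in all 6 libraries. Among the 34, limma called 2 lower (adjusted p under 0.05) and 0 higher. Of all tested genes 0.162% were called lower and 0.477% in either direction. At an unadjusted p under 0.05, 7 were lower and 0 higher, against 2.41% and 7.73% of all tested genes. All TAX libraries lay below all control libraries in 8 of the 34 (23.5%), against 3.34% of all tested genes. The median log2 difference was -0.06, with 23 genes below 0 and 11 above, against a median of 0.05 over all genes.

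IFITM2 and OASL fell after TAX treatment. IFITM2, which hinders the fusion of viruses with endosomes, was at 5.17, 5.69 and 4.59 FPKM in control cells and at 2.98, 3.10 and 3.46 FPKM in TAX cells, a log2 difference of -0.56 (SE 0.092, limma adjusted p = 0.0315). OASL, an oligoadenylate synthetase-like protein that enhances RIG-I signaling, was at 13.6, 15.6 and 13.4 FPKM and at 9.34, 9.93 and 10.2 FPKM, a log2 difference of -0.49 (SE 0.085, limma adjusted p = 0.0397). In both genes the groups did not overlap. When any 1 of the 6 libraries was left out, 0 genes of the list had an adjusted p under 0.05. IFITM2 has close paralogs, so its reads may be shared with them.

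Of the 4 most abundant genes of this list, LY6E, ISG15 and PLSCR1 differed little. LY6E averaged 55.9 ± 6.10 FPKM in control cells and 55.8 ± 3.94 FPKM after TAX treatment (SD, n = 3), a log2 difference of 0.00. ISG15, the ubiquitin-like modifier, averaged 37.1 and 35.4 FPKM with a log2 difference of -0.06 (SE 0.108). PLSCR1, a phospholipid scramblase, averaged 25.5 and 24.3 FPKM with -0.07 (SE 0.077). IFI6, a protein that counters apoptosis, was at 14.4, 18.2 and 14.6 FPKM in control cells and at 13.6, 12.6 and 11.8 FPKM in TAX cells. The groups of IFI6 did not overlap, and its log2 difference was -0.29 (SE 0.102), yet its adjusted p was 0.383 (limma). IFITM3, DDX60 and HERC5 had log2 differences of -0.49, -0.38 and -0.30, with adjusted p of 0.144, 0.127 and 0.209 (limma).

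Against the control means of these 48 genes, IFIT3 and IFIT2 were each exceeded by 3 genes, IFIT1 by 7 and IFIT5 by 26. Of the 34 tested genes, 0 had a log2 difference below that of IFIT1, IFIT2 or IFIT3, and 15 had one below that of IFIT5. The members were selected on this contrast, so their places among these genes are a description and nothing is read from them.

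**Figure D4:**
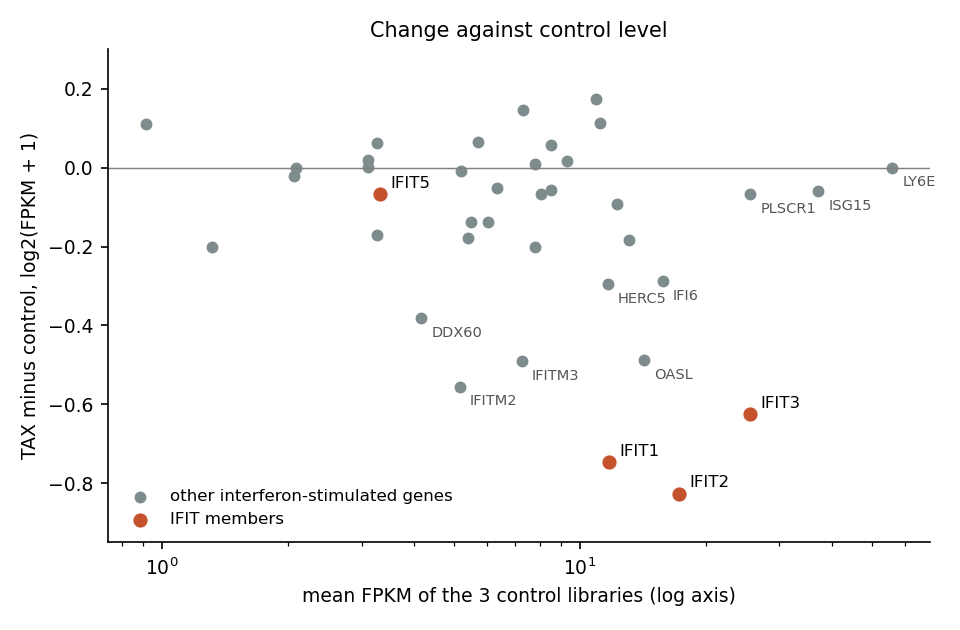
Difference of TAX minus control on the log2(FPKM + 1) scale against the mean FPKM of the 3 control libraries (log axis) for the 4 IFIT members (orange) and the 34 tested genes of the list of other interferon-stimulated genes (grey). IFIT2, IFIT1 and IFIT3 lie below each of the 34 genes, IFITM2 and OASL come next with IFITM3, and LY6E, ISG15 and PLSCR1 lie near 0 at high levels.

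Negative regulators of the response did not pass the test either, with 0 of 6 tested genes at an adjusted p under 0.05 and 1 lower at an unadjusted p under 0.05 (limma), against 2.41% of all tested genes. That gene was SOCS3, an inhibitor of cytokine receptors that bind JAK kinases, with 7.62, 6.75 and 6.92 FPKM in control cells and 5.13, 5.65 and 5.24 FPKM in TAX cells. Its groups did not overlap, and the log2 difference was -0.35 (SE 0.082, limma adjusted p = 0.131). PTPN11, a phosphatase of growth factor signaling, PTPN2, which acts on JAK kinases, and USP18, which removes ISG15 and blocks IFNAR2, differed by 0.12, 0.05 and 0.04. The median of the list was 0.00.

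IFIT proteins act on capped RNA and bind subunits of the initiation factor eIF3, so genes of cap methylation and of eIF3 form the last list. All 16 were tested. None had an adjusted p under 0.05 (limma). At an unadjusted p under 0.05, 2 were higher, EIF3J and EIF3M, with log2 differences of 0.19 and 0.18, against 7.73% of all tested genes. All 16 values lay above 0, from 0.02 to 0.27, while 30.9% of all tested genes lay below 0. The median of the list was 0.15, against a median of 0.05 over all genes. It was 0.074 without control replicate 3 and 0.087 with quantile normalization, against 0.006 and 0.004 over all genes. In 7 of the 16 genes all TAX libraries lay above all control libraries, against 14.6% of all tested genes. The most abundant were EIF3E with 139.5 and 144.2 FPKM in control and TAX cells, EIF3B with 96.2 and 105.9, EIF3C with 73.7 and 79.6, and EIF3K with 73.1 and 80.5. Reads of EIF3C may be shared with its near-identical copy.

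The motif of the promoters was compared with the differences over all genes. Of the 12359 tested genes 9418 had a promoter window, of which 352 held the motif and 9066 did not. The median log2 difference was 0.04 with the motif and 0.06 without it, and 38.1% and 29.3% of the genes lay below 0. At an adjusted p under 0.05 (limma), 2 genes with the motif were lower and 1 was higher, against 7 lower and 27 higher genes without it. Genes with a window make up 9 of the 20 lower and 28 of the 39 higher genes. The rest, IFIT2 among them, had no window and could not be classed. The 2 lower genes with the motif were IFIT1 and IFIT3, which were selected on this contrast, so nothing is read from them about the motif. The higher gene with the motif was IL24, a cytokine of the IL10 family. Of the 34 tested genes among the other interferon-stimulated genes, 29 had a window. The 22 with the motif had a median of -0.07, 16 of them below 0. The 7 without it had a median of 0.01, 3 of them below 0. IFITM2 and OASL, the 2 called genes of the list, had no window. IFIT5, whose window held 3 matches, had the smallest log2 difference of the family.

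Genes around the members were listed because the members are neighbours. Within 300 kb of the row, 24 genes are annotated, 10 of them are in the tables and 5 of these are not IFIT genes. LIPA, the lysosomal acid lipase whose body spans most of the row, was at 57.5 ± 3.83 FPKM in control cells and 54.3 ± 0.547 FPKM in TAX cells (SD, n = 3), a log2 difference of -0.08 (SE 0.080, limma adjusted p = 0.755). FAS, a death receptor, differed by -0.11 (SE 0.088, limma adjusted p = 0.674). PANK1, a kinase of coenzyme A synthesis, averaged 1.41 and 1.21 FPKM, near the filter of 1 FPKM. Its TAX libraries lay below its control libraries, as in 3.34% of all tested genes, with a log2 difference of -0.12 (SE 0.081, limma adjusted p = 0.634). CH25H, itself an interferon-stimulated enzyme, and SLC16A12 stayed below the filter.

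**Figure D5:**
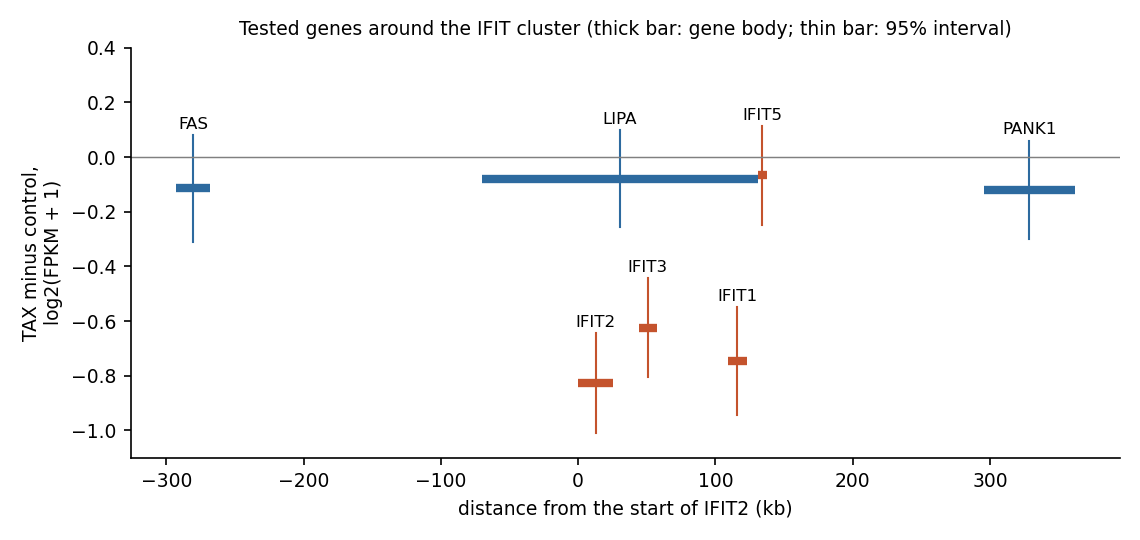
Difference of TAX minus control on the log2(FPKM + 1) scale for the 7 tested genes of the region, placed by distance in kb from the start of IFIT2, with thick bars for gene bodies and thin bars for 95% intervals (limma). IFIT2, IFIT3 and IFIT1 lie below -0.60 and IFIT5 lies near LIPA, as a description of members selected on this contrast. LIPA, which spans IFIT2, IFIT3 and IFIT1, FAS and PANK1 have intervals that hold 0.

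The map of the region shows IFIT5 next to IFIT1 in place and next to LIPA in value. The genes nearest to each member in pattern were found last, by the root mean square over the 6 libraries of the difference between the log2 values of a member and of another gene, each relative to its own control mean. Much of this measure is the difference between the groups, so it is a description. Among tested genes with a symbol, IFIT1 was nearest to IL6 (0.109), IFIT2 (0.117) and ODF3B (0.124), with IFIT3 at place 4. IFIT2 was nearest to IFIT1 (0.117), NAPSA (0.147) and C1S (0.153). IFIT3 was nearest to CYP24A1 (0.091), ODF3B (0.094) and IFITM2 (0.112).

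IL6, the inflammatory cytokine, was at 7.20, 7.49 and 5.67 FPKM in control cells and at 3.35, 4.27 and 3.78 FPKM in TAX cells. Its groups did not overlap, as with IFIT1. ODF3B averaged 4.37 and 2.55 FPKM, and CYP24A1, the vitamin D 24-hydroxylase, 7.23 and 4.69 FPKM. NAPSA, an aspartic protease, averaged 7.90 and 4.42 FPKM, and C1S, a protease of complement, 5.84 and 3.17 FPKM. In these 5 genes, as in IFIT1, IFIT2 and IFIT3, all TAX libraries lay below all control libraries, against 3.34% of all tested genes. They were chosen by nearness to the members, so this follows largely from the choice and nothing is read from it.

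IFIT5 had other neighbours in pattern. PCDHA12, a protocadherin (0.018), GABPB2, a subunit of the factor GABP (0.022), and ACSL1, an acyl-CoA synthetase (0.024), were nearest to it. Their groups overlapped, which follows largely from how they were chosen. Counted from IFIT1, IFIT2 and IFIT3, IFIT5 stood at places 1666, 1916 and 1642 of the 12359 tested genes. In the other direction, from IFIT5, the members IFIT3, IFIT1 and IFIT2 stood at places 12132, 12238 and 12275.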

How the data were processed

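RNA was isolated with Trizol, and libraries were made with a kit for mRNA. Each library has its own table, in which the authors deposited a single value for each gene. The unit is not stated, and the deposited values were taken as FPKM because they are decimals with unequal sums. The submitters' processing notes name HISAT2 2.2.0, StringTie 2.1.2 and GRCh38. The annotation is not given in the sources used here. Of 23062 identifiers 3130 carry the MSTRG prefix of assembled loci. No counts were given, so depth is unknown and no counting interval can be stated.

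Values of log2(FPKM + 1) of the genes that reached 1 FPKM in 3 or more libraries were fitted with limma 3.58.1 (lmFit, eBayes with trend) in R 4.3.3, without a covariate, with Benjamini-Hochberg adjustment over all tested genes. A count test planned in case of counts was not needed. The fit was checked on simulated data. Gene positions came from GENCODE 29, in which 19458 identifiers matched a name, and coding sequences were aligned with Biopython 1.88 in Python 3.11.15. Promoters came from RefSeq.

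The members and the 7 pathway lists and 4 marker lists were chosen with earlier results of these data known. Genes were named as all members with IFIT1B and all tested receptor, kinase, STAT and IRF genes. In the other pathway lists those with an adjusted p under 0.05 and the 4 of highest control level were named. Tested genes within 300 kb and the 3 nearest in pattern to each member were also named. Of the marker lists only some genes were named, and not all by this rule. DHX58, SOCS3, EIF3J, EIF3M, IFITM3, DDX60, HERC5, IL24, CH25H and SLC16A12 were chosen after their values were seen. Some genes are not reported here. Alternatives were a pseudocount of 0.1, no filter or a mean of at least 5 FPKM, quantile normalization, centring on the median, scaling to equal sums, limma without trend, a replicate block and leaving out each library.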

Additional observations from a re-analysis of the deposited data

How the results depend on the processing

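Over 14 alternatives the log2 difference ran from -0.82 to -0.68 for IFIT1, from -0.89 to -0.79 for IFIT2 and from -0.70 to -0.56 for IFIT3. Since the members were selected on this contrast, their calls are no sign of stability. Without a filter on low values the 3 values were -0.75, -0.83 and -0.62 and 0 members were called (limma), with 1 gene lower and 0 higher in all and 1854 of 20280 genes at an unadjusted p under 0.05. IFIT5 ran from -0.13 to -0.02 and could not be fitted with a mean of at least 5 FPKM. Genes called lower were 48 with quantile normalization and 50 with centring on the median. The other interferon-stimulated genes called were 0 without the filter, 1 with a mean of at least 5 FPKM, and 4 with quantile normalization and with centring. The cause of these shifts was not tested. When 1 library was left out, IFIT1 ran from -0.81 to -0.68, IFIT2 from -0.87 to -0.79 and IFIT3 from -0.66 to -0.56. Genes called ranged from 8 (without control replicate 1) to 15 lower and from 9 (without TAX replicate 2) to 28 higher. Lower genes were 12 without control replicate 2, and 13, 10 and 12 without TAX replicates 1, 2 and 3. Higher genes were 13 and 12 without control replicates 1 and 3, and 16 and 11 without TAX replicates 1 and 3. The other interferon-stimulated genes called ranged from 0 to 0. The genes of the other 6 pathway lists called were 0 throughout. Depth is unknown and limits what can be said of genes near 0.

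Replicate numbers are shared by the groups, but the deviations of same-numbered libraries correlated at -0.117, -0.333 and -0.171. No library correlated best with its own number. The highest values were 0.292 for control replicate 3 with TAX replicate 2 and 0.278 for control replicate 2 with TAX replicate 1. The libraries were therefore not taken as pairs. With a replicate block 13 genes were lower and 13 higher, 3 members and 0 other interferon-stimulated genes were called, and 971 genes had an unadjusted p under 0.05.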
